A study of Sus scrofa with 6 samples.

Results

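EDN1, EDNRA, DDAH1, CNN1 and VEGFA, 5 genes that set or record the tone and supply of blood vessels, were followed across the left atria of 6 pigs. They are 5 of the 6765 genes that the array's annotation names by a single symbol, and all of their 8 probe sets were taken. The genes were selected on their measured intensities, which had been seen to differ between the groups described here (MR against NC, or MRV against MR). Their own differences are therefore given as a description with a standard error and without a p-value. Counts of the 5 by limma p are printed beside the shares of all genes. They cannot serve as a test, because the same values chose the genes.

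The animals were male Lanyu miniature pigs, each 18 months old, with 1 Affymetrix porcine array of total RNA per animal and 2 animals in each of 3 groups. NC animals were normal controls, and no operation is recorded for them. MR animals had mitral regurgitation, in which blood leaks back into the left atrium, made surgically by a 2.8 mm hole in the posterior leaflet of the mitral valve, and were killed 12 months later. MRV animals had the same lesion and survival time and were given valsartan, which blocks the type I receptor of angiotensin II, at a daily 3.43 mg/kg that began 1 week ahead of the operation. A comparison with NC holds the lesion and the surgery together, and these cannot be told apart.

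Endothelin-1 is a peptide made mainly by endothelial cells that constricts vessels through the type A receptor on smooth muscle, and it acts on heart muscle through the same receptor. Nitric oxide opposes it by raising cyclic GMP in smooth muscle, and its synthesis is held back by asymmetric dimethylarginine, which DDAH1 degrades. Calponin-1 is a thin-filament protein of contractile smooth muscle, and VEGFA is the main growth factor of endothelial cells, induced by low oxygen. Angiotensin II, whose receptor valsartan blocks, is a known inducer of endothelin-1.

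Array medians lay between 90.2 and 93.4 intensity units, and the RNA read as atrial muscle. The atrial natriuretic peptide gene NPPA read from 18414 to 20170 and the atrial light chain gene MYL4 from 21034 to 21842 on the 6 arrays. The 8 atrial markers measured among 10 summed from 107817 to 111878. Of these, SLN and RYR2 were less even and are named with their values in view. SLN read 5369 on MR1 and from 8530 to 10033 on the other arrays. RYR2 read 4786 and 3343 in the MR pair and 3124 and 2900 in the MRV pair. NC1 stood somewhat apart: the log2 intensities of NC1 and NC2 correlated with r = 0.980 over probe sets (which are no independent replicates), against 0.990 for the MR pair and 0.991 for the MRV pair. NC1 also had the lowest 28S ribosomal RNA control, 117 against 187 to 559 on the other arrays. The actin control's 3' signal over its 5' signal is a ratio that rises as RNA degrades. It was 1.44 and 1.70 on the MR arrays, 1.61 and 1.91 on the NC arrays, and 2.30 and 1.87 on the MRV arrays. MR and MRV did not overlap in this ratio, so differences between them are also given with the ratio in the model as a covariate where that moves them most. With 2 arrays per group the ratio is partly confounded with group. A value with the covariate can therefore remove or enlarge a group difference and is not a corrected estimate. The same ratio of the GAPDH control was 1.53 and 1.57 in MR, 1.53 and 1.55 in MRV, and 1.56 and 1.59 in NC, with MR and MRV overlapping.

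EDN1, the gene of the precursor of endothelin-1, was higher in MR than in either other group. It read 91.5 and 78.7 in the NC pair, 138 and 121 in the MR pair, and 71.3 and 99.6 in the MRV pair. Both MR arrays lay above the other 4, and the NC and MRV arrays overlapped. The mean went from 85.1 ± 9.05 in NC to 129 ± 12.0 in MR, 1.52-fold, and stood at 85.45 ± 20.01 in MRV (SD, n = 2). On the scale of log2(intensity + 16), used for every log2 difference here, MR exceeded NC by 0.53 (SE 0.17), and MRV minus MR was -0.53 (SE 0.17). It was -0.33 without MRV1, -0.73 without MRV2 and -0.13 with that actin ratio in the model. In whole tissue, fewer cells of a type and less RNA per cell cannot be told apart.

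EDNRA, the gene of the type A endothelin receptor, ran the other way from the gene of its ligand. Its intensity was 672 and 639.8 in the NC pair, 459 and 385.5 in the MR pair, and 702 and 588 in the MRV pair. Both MR arrays were below all others, while the MRV arrays fell on either side of the NC arrays. The group means were 656 ± 22.9 in NC, 422 ± 52.1 in MR and 645 ± 80.3 in MRV. MR minus NC was -0.62 (SE 0.14), or 1.55-fold lower, and MRV minus MR was 0.59 (SE 0.14), or 1.53-fold higher. NC and MRV differed by less than their spread, with a log2 difference of -0.03 (SE 0.14).

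Of the 8 genes listed for the endothelin system, 4 had a probe set with a single symbol and 3 were bright enough to test. EDNRB, the type B receptor, which on endothelium releases nitric oxide and clears endothelin, read 93.7 and 101 in the NC pair, 106 and 131.5 in the MR pair, and 120.5 and 115 in the MRV pair. It was higher in both lesioned groups than in NC on every array. Its log2 difference was 0.25 for MR minus NC (SE 0.13, limma adjusted p = 0.999955) and 0.24 for MRV minus NC (SE 0.13, limma adjusted p = 0.904). EDNRB therefore did not pass the threshold. ECE1, the endothelin-converting enzyme that cuts the active peptide from its precursor, read from 48.3 to 62.0, below the level that was tested. EDN2, EDN3 and MME, which encodes a peptidase that degrades endothelin, were not analysed here.

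**Figure D1:**
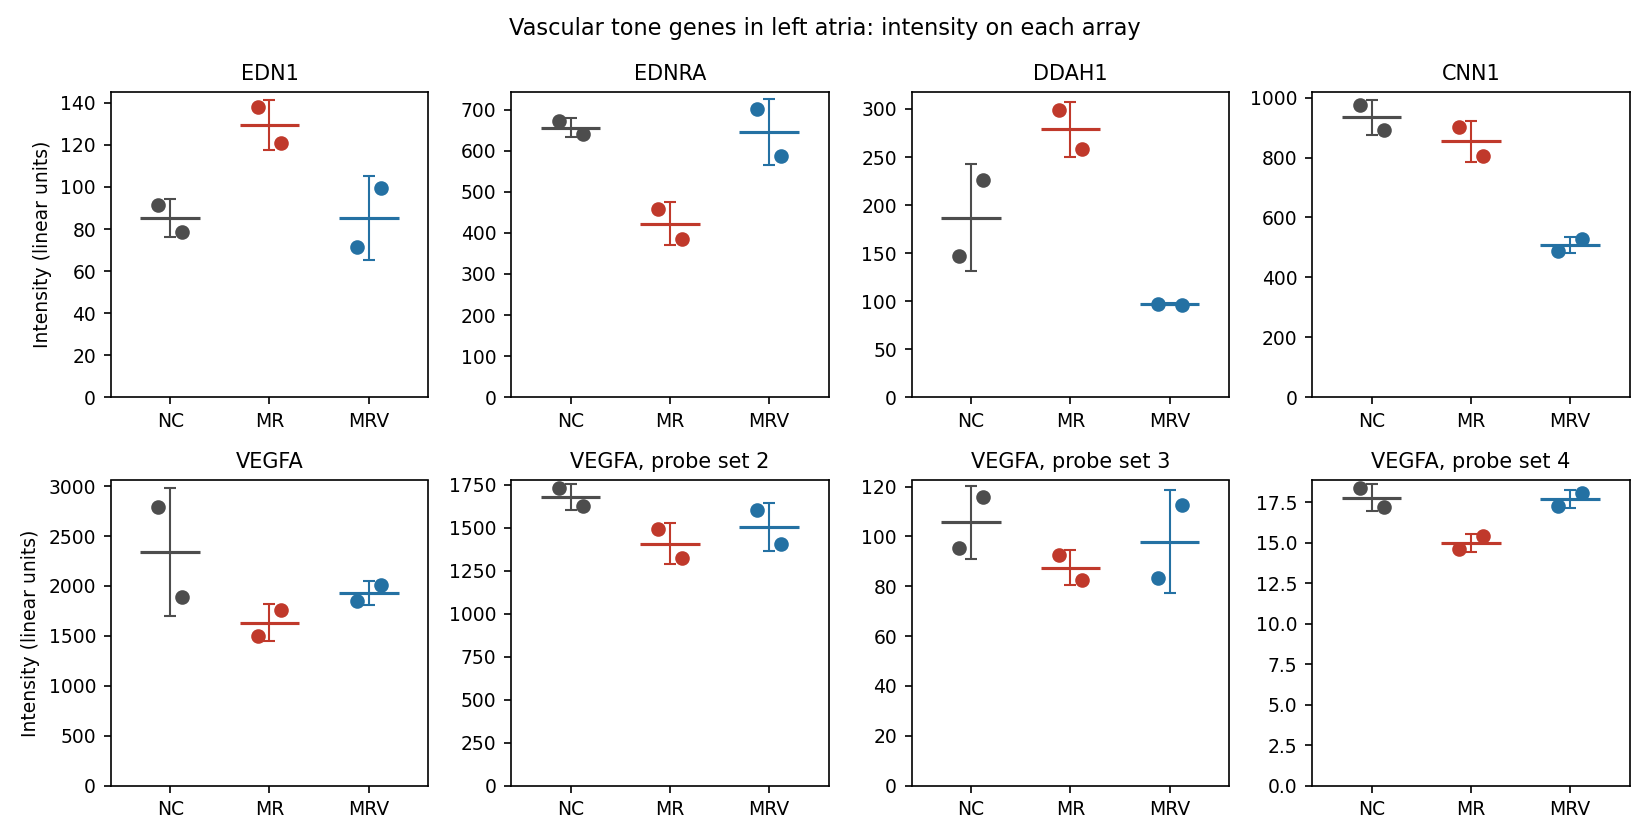
Intensity of the 8 probe sets of EDN1, EDNRA, DDAH1, CNN1 and VEGFA (vertical axis, linear units from 0) on the 2 arrays of each group (points), with the group mean (line) and SD (error bar). EDN1 is highest and EDNRA lowest on the MR arrays, DDAH1 and CNN1 are lowest on the MRV arrays, and the 4 VEGFA probe sets have their lowest group mean in MR.

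DDAH1 had the largest fold difference of the 5 genes between MR and MRV. It encodes dimethylarginine dimethylaminohydrolase 1. Intensities were 147 and 226 in the NC pair, 299 and 259 in the MR pair, and 97.5 and 96.2 in the MRV pair. The 3 groups did not overlap: MR was highest, NC lay between, and MRV was lowest, with its 2 arrays close together. Means were 187 ± 55.6 in NC, 279 ± 28.4 in MR and 96.85 ± 0.92 in MRV. MRV was 2.88-fold below MR (log2 difference -1.38, SE 0.20) and 1.93-fold below NC (log2 difference -0.82, SE 0.20).

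The place of NC between the other groups was loose. MR minus NC was 0.56 (SE 0.20) with all arrays, 0.28 without NC1 and 0.85 without NC2. MRV minus NC was -1.10 without NC1 and -0.53 without NC2. The step from MR to MRV did not rest on a single array, lying between -1.48 and -1.28 when any 1 array was left out, and it was -1.57 with that actin ratio in the model.

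The other genes of the nitric oxide pathway gave no call. Of 12 listed genes measured, 9 were tested, and 0 of the 8 besides DDAH1 passed the limma adjusted threshold of 0.05 in any comparison. NOS3, the endothelial nitric oxide synthase, read from 125 to 137 on all 6 arrays, with a log2 difference of -0.03 between MRV and MR (SE 0.10). GUCY1B3, the beta subunit of the guanylate cyclase that senses nitric oxide, read 374 and 258.5 in the NC pair, 540.1 and 446 in the MR pair, and 341 and 261.5 in the MRV pair. Its MR arrays were the highest, and NC and MRV overlapped. GUCY1B3 differed by 0.63 between MR and NC (SE 0.22, limma adjusted p = 0.999955) and by -0.69 between MRV and MR (SE 0.22, limma adjusted p = 0.626). Its other tested probe set differed by 0.38 and -0.38. With that actin ratio in the model, MRV minus MR of GUCY1B3 was -0.54 (SE 0.38).

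ARG2, an arginase that draws arginine away from nitric oxide synthase, was too dim to test and read 46.9 and 61.6 in the NC pair, 91.1 and 77.3 in the MR pair, and 29.8 and 50.2 in the MRV pair. Its MR arrays were the highest here too, although its other probe sets differed between MRV and MR by only -0.12 and -0.10. PDE5A, which breaks down cyclic GMP, read from 22 to 28.5 and was not tested. ASS1, which makes the precursor of arginine, read 746 and 293 in the NC pair, 367 and 391 in the MR pair, and 198.5 and 320 in the MRV pair, so that NC held both a high and a low array. MRV minus MR of ASS1 was -0.56 (SE 0.44, limma adjusted p = 0.809), and 0.39 (SE 0.53) with that actin ratio in the model. DDAH2, PRMT1 and PRKG1 were not analysed here.

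CNN1, calponin-1, was low in the valsartan group. The intensities were 976 and 892 in the NC pair, 902 and 805.5 in the MR pair, and 489.5 and 527 in the MRV pair. NC and MR overlapped, and both MRV arrays lay below all 4 others. From 934 ± 59.3 in NC and 854 ± 68.0 in MR, the mean went to 508 ± 26.6 in MRV. MRV was 1.68-fold below MR (log2 difference -0.73, SE 0.12) and 1.84-fold below NC (log2 difference -0.86, SE 0.12). MR minus NC was -0.13 (SE 0.12), less than the spread.

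The low MRV values of CNN1 and of DDAH1 went with a lower actin control. On the MRV arrays the 3' actin control read 7859 and 10977, against 13511 and 13135 in NC and 15543 and 14861 in MR. That is the group order of DDAH1. What the actin control shares with either gene was not tested. With the actin ratio as a covariate CNN1 differed by -0.53 between MRV and MR and by -0.74 between MRV and NC. The smooth muscle markers did not all go with CNN1. Of the 4 measured among 7, 2 were lower in MRV than in MR. The 4 summed to 8480 and 7878 in the MR pair and 7945 and 7814 in the MRV pair, against 9971 and 7900.5 in NC. None of the 4 was at 0. Taken against the mean of these 4 markers on the same array, MRV minus MR of log2 CNN1 was -0.61.

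Among the contractile genes of smooth muscle, 11 were tested, and 0 of the 10 besides CNN1 passed the limma threshold. In MRV against MR, 6 of the 10 were lower on average, where 57.6% of all genes were, and 3 were lower and 0 higher at an unadjusted p under 0.05, where 6.27% and 1.61% of all genes were. TPM2, beta-tropomyosin, read 2580 and 1909 in the NC pair, 2917 and 2198 in the MR pair, and 1412 and 1272 in the MRV pair. Its MRV arrays were below the other 4. TPM2 differed by -0.91 between MRV and MR (SE 0.20, limma adjusted p = 0.502) and by -0.72 between MRV and NC (SE 0.20, limma adjusted p = 0.904). Of its other 3 probe sets, the bright pair differed by -0.86 and -0.91 between MRV and MR, and the dim one by 0.01. With that actin ratio in the model TPM2 differed by -0.61 between MRV and MR (SE 0.31). TPM1 of the same list, named with its values in view, read from 10977 to 12881. The part of heart muscle in the TPM1 and TPM2 values was not tested.

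TAGLN, transgelin, an actin-binding protein of smooth muscle, read 991 and 833 in the NC pair, 966 and 942 in the MR pair, and 663 and 770.5 in the MRV pair. The MRV arrays were again lowest, at -0.41 in log2 from MR (SE 0.14, limma adjusted p = 0.626), and at -0.15 (SE 0.19) with that actin ratio in the model. The third gene, CALD1 (caldesmon), was chosen with its values in view. It differed by -0.40 between MRV and MR (SE 0.15) and by -0.68 (SE 0.20) with that ratio in the model, while its other probe set differed by 0.12. SMTN, smoothelin, also chosen with its values in view, lay on the other side: it read 2483 and 2540.4 in the MR pair and 3090.4 and 2824 in the MRV pair, 0.23 higher in log2 (SE 0.10, limma adjusted p = 0.709). The second tested probe set of SMTN differed by 0.29. ACTA2, the smooth muscle actin, read 2300.0 and 2019 in the MR pair and 2058 and 2311 in the MRV pair, which is a step of 0.02 in log2 (SE 0.18), and of 0.42 (SE 0.22) with that ratio in the model. MYLK, the kinase that starts smooth muscle contraction, read from 52.3 to 72. Among the relatives of CNN1, CNN2 differed by 0.02 between MRV and MR (SE 0.16) and CNN3 by -0.27 (SE 0.21), and both had overlapping arrays. With that actin ratio in the model CNN2 differed by 0.15 (SE 0.28) and CNN3 by 0.29 (SE 0.18), so that CNN3 turned direction. MYH11, the smooth muscle myosin heavy chain, was not analysed here.

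VEGFA was lowest in MR on average with each of its 4 probe sets. The brightest read 2792 and 1887 in the NC pair, 1501 and 1764 in the MR pair, and 1846 and 2013 in the MRV pair. Both MR arrays were below the other 4, and NC1 was far above the rest. Means were 2339 ± 640.0 in NC, 1632 ± 186 in MR and 1929.7 ± 118 in MRV. MR minus NC was -0.49 (SE 0.21) with all arrays and -0.21 without NC1. MRV minus MR was 0.24 (SE 0.21), and it was 0.13 without MR1 and 0.47 with that actin ratio in the model.

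The other VEGFA probe sets had the same order of means and smaller steps. The second read 1728.5 and 1623 in the NC pair, 1490.3 and 1321 in the MR pair, and 1604 and 1404 in the MRV pair, with MR below NC and MRV overlapping MR. Its MR minus NC was -0.25 (SE 0.12). The third read from 82.6 to 116 and differed by -0.23 between MR and NC (SE 0.17). The fourth, at 14.6 to 18.4, was too dim to test, yet its MR arrays were the lowest.

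NC1 was also the array with most signal from adipocyte and macrophage markers. The 5 adipocyte markers measured among 7 summed to 3397 in NC1 and 2446 in NC2, to 1875 and 2392 in MR, and to 2103 and 1125 in MRV, and none was at 0. All 4 tested adipocyte markers were lower in MR than in NC on average, as VEGFA was. MR minus NC was -0.02 for LEP, -0.43 for FABP4, -0.71 for LIPE and -0.80 for CIDEA, with overlapping arrays for LEP and FABP4. In MRV minus MR, 3 of the 4 were higher and FABP4 was lower (-0.63, SE 0.39). The 4 macrophage markers measured among 7 summed to 835 in NC1, 466 in NC2 and from 338 to 788 elsewhere. The part of either in the VEGFA values was not tested.

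The VEGF receptors and related factors gave no call among 5 tested genes besides VEGFA. VEGFB read from 1162 to 1292. FLT1, a VEGF receptor, read from 57.6 to 100.2 with overlapping groups, and KDR, the main signalling receptor, read from 29.0 to 39.3 and was not tested. VEGFC, PGF, NRP1 and the hypoxia target BNIP3 were not analysed here. Of the transcription factors that respond to low oxygen, EPAS1 read from 359 to 499.8. HIF1A read 1429 and 1250 in the NC pair, 1112 and 1207 in the MR pair, and 1209 and 1236 in the MRV pair. Its MR arrays were the lowest, as for the brightest VEGFA probe set. HIF1A differed by -0.20 between MR and NC (SE 0.12, limma adjusted p = 0.999955) and by 0.08 between MRV and MR (SE 0.12).

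Targets of low oxygen read in different directions, and 0 of the 13 hypoxia genes tested besides VEGFA passed. ANKRD37 read 72.5 and 45.0 in NC, 87.1 on both MR arrays, and 42.6 and 59.0 in MRV, which put MRV minus MR at -0.64 in log2 (SE 0.21, limma adjusted p = 0.628). HILPDA, whose protein coats lipid droplets, read 59.2 and 75.8 in the MR pair and 106 and 122.5 in the MRV pair, which is a step of 0.65 in log2 (SE 0.24, limma adjusted p = 0.668). With that actin ratio in the model, ANKRD37 differed by -0.18 (SE 0.26) and HILPDA by 0.30 (SE 0.37). SLC2A1, the glucose transporter, read from 112 to 169. ADM, the vasodilator adrenomedullin, read 168 and 186 in the MR pair and 119 and 141 in the MRV pair, which is a step of -0.41 in log2 (SE 0.16, limma adjusted p = 0.668), and of -0.19 (SE 0.24) with that ratio in the model.

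**Figure D2:**
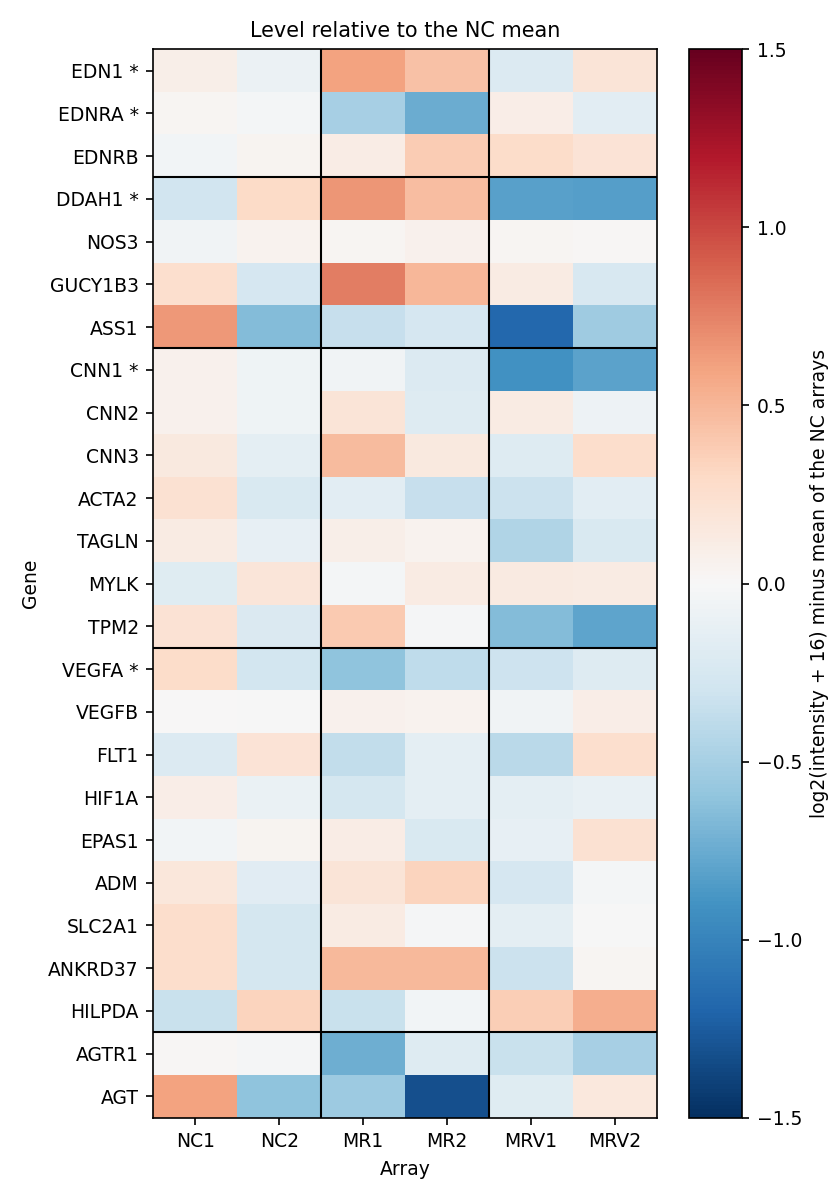
Level of the 5 genes (marked with a star) and of 20 related genes on each of the 6 arrays, as log2(intensity + 16) minus the mean of the NC arrays. Rows are ordered by role: endothelin, nitric oxide, contractile, VEGF and hypoxia, angiotensin; red is higher and blue lower than NC, and in their own rows CNN1 and TPM2 are bluest on the MRV arrays while EDN1 and GUCY1B3 are reddest on the MR arrays.

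The genes of receptor signalling to contraction and of other vasoactive mediators gave no call among 7 and 9 tested genes. AGTR1, the receptor that valsartan blocks, read 599 and 588 in the NC pair, 352 and 518 in the MR pair, and 469 and 414 in the MRV pair. NC was highest on both arrays, and MR and MRV overlapped. AGTR1 differed by -0.46 between MR and NC (SE 0.19, limma adjusted p = 0.999955) and by 0.04 between MRV and MR (SE 0.19). AGT, which encodes angiotensinogen, read 1887 and 1097 in the MR pair and 2434 and 3085 in the MRV pair, which is a step of 0.92 in log2 (SE 0.45, limma adjusted p = 0.727), and of 2.05 (SE 0.42, limma adjusted p = 0.999856) with that actin ratio in the model. Its NC arrays read 4209 and 1803, so that NC overlapped both other groups.

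**Figure D3:**
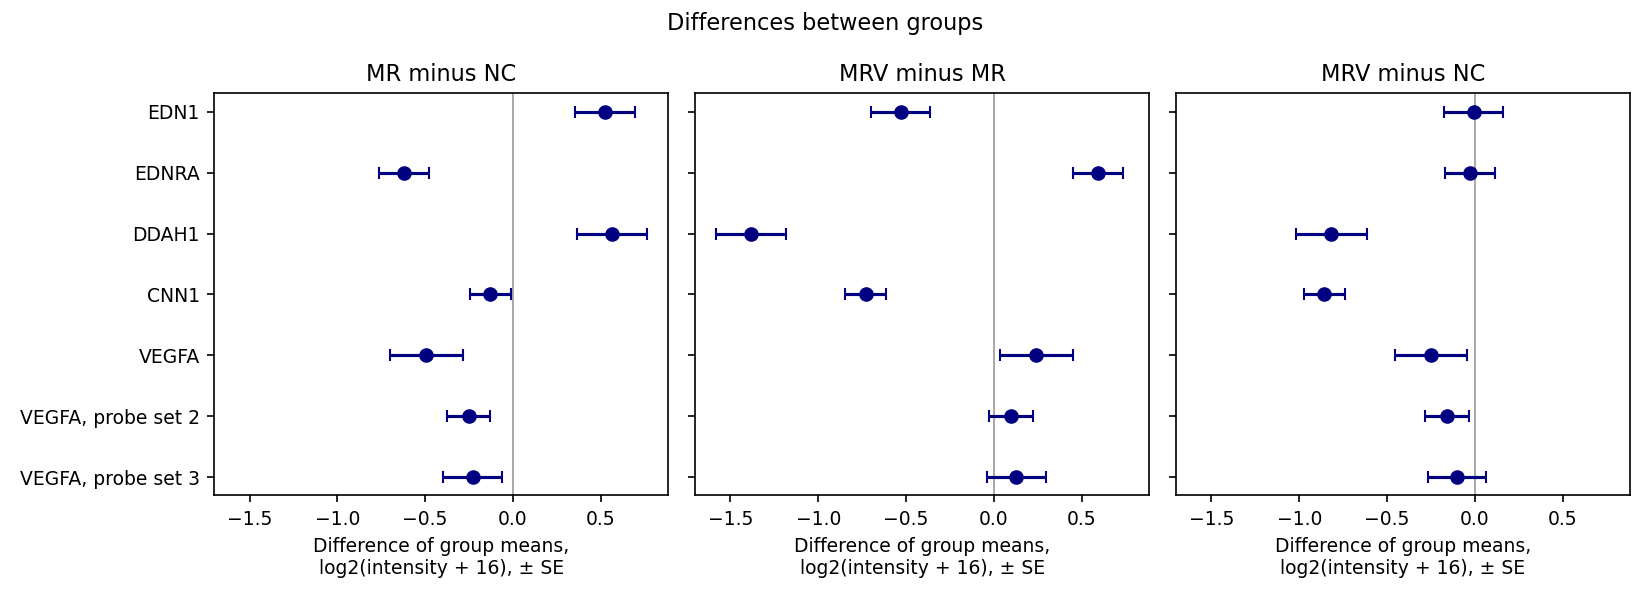
Difference of group means in log2(intensity + 16) (horizontal axis) with its SE for the 7 tested probe sets, with MR minus NC, then MRV minus MR, then MRV minus NC. EDN1 and EDNRA lie on opposite sides of 0 in both comparisons with MR and near 0 in MRV minus NC, and DDAH1 and CNN1 lie below 0 in both comparisons with MRV.

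Set side by side, the 5 genes fell into different orders. MR minus NC was 0.53 for EDN1, -0.62 for EDNRA, 0.56 for DDAH1, -0.13 for CNN1 and -0.49 for VEGFA. MRV minus MR was -0.53, 0.59, -1.38, -0.73 and 0.24 in that order. These comparisons share the MR arrays, so their opposite signs are not independent. MRV minus NC was -0.01 for EDN1, -0.03 for EDNRA and -0.25 for VEGFA, with SEs of 0.17, 0.14 and 0.21, against -0.82 for DDAH1 and -0.86 for CNN1.

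In the limma fit over all 14400 tested probe sets, 0 of the 5 genes passed the adjusted threshold in any comparison. The share of all probe sets that passed was 0.00694% in MR minus NC (0.0185% of the genes) and 0 in the others. By the sign of the log2 difference, 2 of the 5 were higher and 3 lower in MR minus NC, where 52.6% and 47.4% of genes were, and 2 higher and 3 lower in MRV minus MR, where 42.4% and 57.6% were. In MRV minus NC all 5 log2 differences were below 0, where 55.8% of genes were lower and 44.2% higher, although that of EDN1 was -0.0063 and its mean intensity was 85.45 in MRV against 85.1 in NC. In MR minus NC, 2 of the 5 were higher and 2 lower without overlap, where 15.7% of all 5408 genes were higher and 12.4% lower. At an unadjusted p under 0.05 the counts were 2 higher and 1 lower, where 2.61% and 1.89% of genes were. In MRV minus MR, 2 were higher and 3 lower without overlap, where 15.0% and 28.7% of genes were, and 1 was higher and 3 lower at an unadjusted p under 0.05, where 1.61% and 6.27% of genes were. In MRV minus NC, 0 were higher and 2 lower without overlap, where 13.3% and 21.8% of genes were, and 0 higher and 2 lower at an unadjusted p under 0.05, where 1.18% and 4.44% of genes were. These contrasts chose the 5 genes, so their counts by p or by overlap are no test. Nothing is read from how those counts compare with the shares of all genes.

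The pathway genes around them come from lists by function. Of 54 tested genes other than the 5, 0 passed the limma adjusted threshold in any of the 3 comparisons, and the smallest adjusted p was 0.502. In MR minus NC, 1 gene (1.85%), GUCY1B3, was higher at an unadjusted limma p under 0.05 and 0 were lower, where 2.61% and 1.89% of all genes were. With that actin ratio in the model, 0 were higher and 2 lower (3.70%), where 1.81% and 1.46% of all genes were. The total rose without NC1, mostly with genes higher in MR, and without NC2, mostly with genes lower in MR. It also rose without MR2. In MRV minus MR, HILPDA was higher and 6 genes were lower, 11.1% of the 54 against 6.27% of all genes. With that actin ratio in the model the count of 7 became 2, with 1 higher and 1 lower (1.85% each), where 0.81% and 1.92% of all genes were. The count fell without any 1 MR or MRV array and rose without either NC array. In MRV minus NC, 0 were higher and 5 were lower, 9.26% against 4.44%. Those 5 were TPM2, TAGLN, CALD1, the nitric oxide synthase trafficking gene NOSTRIN and the oxygen sensor gene EGLN1, of which the last 3 were chosen with their values in view. With that actin ratio in the model 1 was higher and 3 were lower, 1.85% and 5.56%, where 0.80% and 2.53% of all genes were. The count of 5 rose without NC2 and fell without any other 1 array. Leaving out 1 array leaves 1 array in a group, so the counts of those fits are not given.

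Without the 5 genes, the list medians can be read against those of all genes, which were 0.01 for MR minus NC, -0.03 for MRV minus MR and -0.02 for MRV minus NC. In the same order, the 10 contractile genes had medians of 0.02, -0.15 and -0.18, and the 8 nitric oxide genes -0.10, -0.05 and -0.05. The 13 hypoxia genes had -0.02, -0.12 and -0.11, and the 5 VEGF and angiopoietin genes 0.09, -0.11 and 0.02. The 7 contraction signalling genes had -0.13, 0.01 and -0.17, and the 9 other vasoactive mediators 0.10, 0.01 and -0.03. EDNRB was the single endothelin gene left, and CNN2 and CNN3 the calponins. The sign of most of these medians rested on single arrays: in each comparison, 5 of the 8 lists had medians on both sides of 0 as 1 array at a time was left out. Contraction signalling ran from -0.25 to 0.12 in MR minus NC and from -0.11 to 0.23 in MRV minus MR, and the VEGF and angiopoietin genes from -0.20 to 0.04 in MRV minus MR. The contractile genes stayed below 0 in MRV minus MR (-0.16 to -0.13) and in MRV minus NC (-0.33 to -0.07). In MR minus NC they did not (-0.04 to 0.10). The nitric oxide genes stayed below 0 in MR minus NC (-0.13 to -0.01) and in MRV minus MR (-0.09 to -0.03). They also did in MRV minus NC (-0.22 to -0.03). Below 0 in MRV minus MR were also the hypoxia genes (-0.12 to -0.06). With the actin ratio in the model, the MRV minus MR median was 0.09 for the nitric oxide genes and 0.03 for the hypoxia genes.

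**Figure D4:**
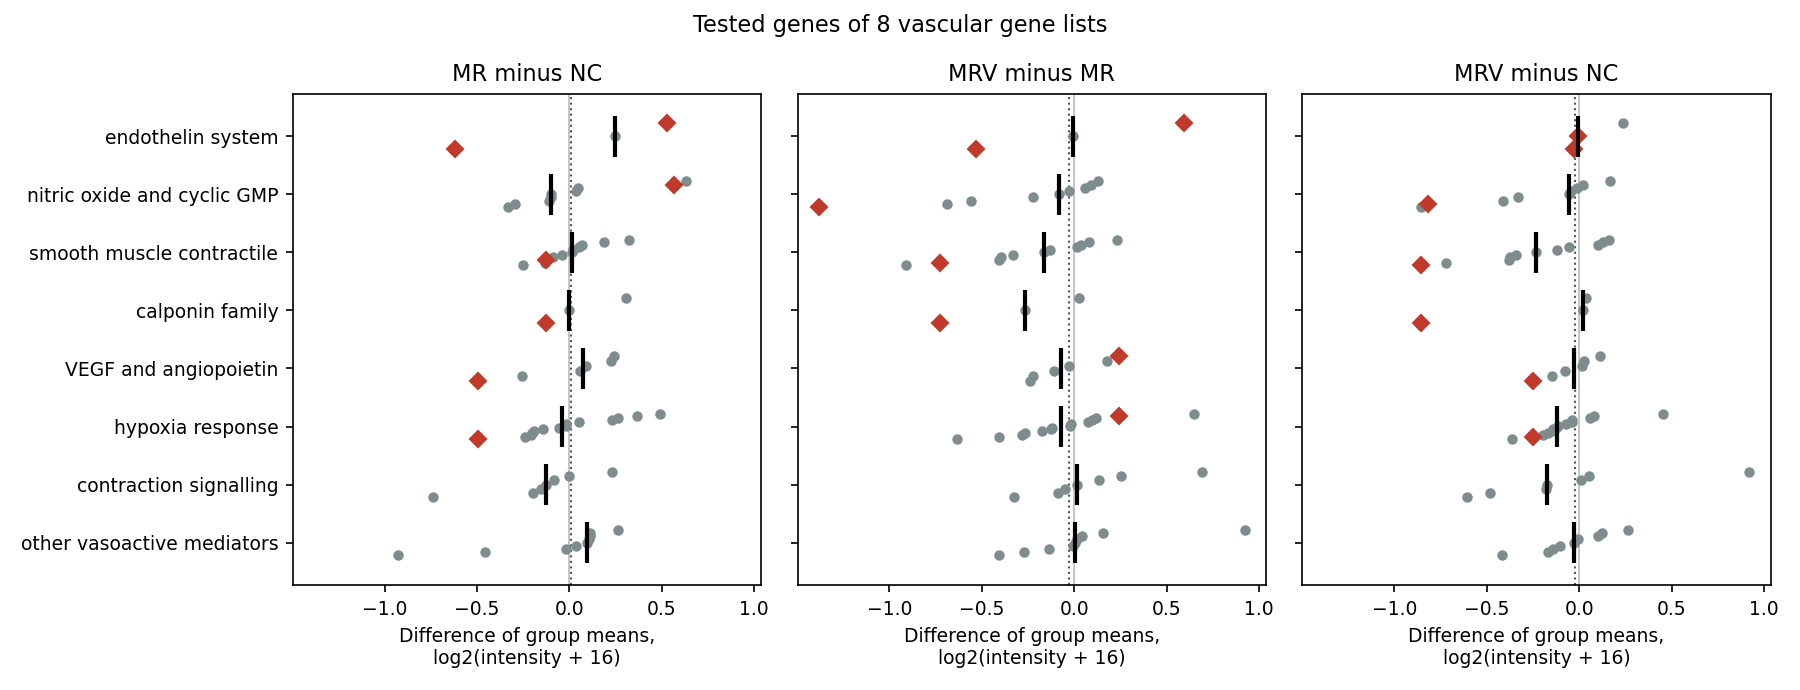
Difference of group means in log2(intensity + 16) (horizontal axis) for each tested gene of 8 vascular gene lists (rows), with the 5 genes as red diamonds, other genes as grey points, the list median (the 5 genes included) as a black bar and the median of all 5408 genes as a dotted line. List medians lie between -0.27 and 0.25, and DDAH1 in MRV minus MR is the farthest point from 0.

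Cell type markers were set beside the genes. Of the 13 endothelial markers, 10 were measured. Of these, 4 were higher and 6 lower in MR than in NC, and the same counts held for MRV against MR. Without overlap, 3 were lower and 0 higher in MRV than in MR, where 28.7% and 15.0% of all genes were. The 3, named with their values in view, were ECSCR, ERG (-0.28, SE 0.10) and VWF (-0.27, SE 0.13). Another tested probe set of VWF differed by 0.12. The 10 markers summed to 4627 and 4404 in the NC pair, 4357 and 4748 in the MR pair, and 4044 and 4572.5 in the MRV pair. None was at 0. Against the mean of these 10 markers on the same array, MR minus NC of log2 EDN1 was 0.51 and MRV minus MR of log2 DDAH1 was -1.32. The endothelial sums of NC and MR overlapped, and the EDN1 values of NC and MR did not. Single markers, named with their values in view, differed from the sum. ECSCR was highest on the MR arrays, as EDN1 was, at 0.33 for MR minus NC and -0.32 for MRV minus MR (SE 0.13 each). Its other probe set differed by 0.20 and -0.01. ENG was lower in MR than in NC without overlap (-0.26, SE 0.15). The part of endothelial cells in the EDN1 values was not tested.

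Markers of ventricular and slow muscle were high in MR. The 4 measured among 5 were all higher in MR than in NC on average and all lower in MRV than in MR. Their sum was 9371 and 11450 in the NC pair, 23786 and 15458 in the MR pair, and 9026 and 10325 in the MRV pair, and none was at 0. The ventricular light chain gene MYL2 read 10693 and 2318 in MR and from 151.5 to 954 elsewhere. EDN1 and DDAH1 were highest and EDNRA and VEGFA lowest on the same 2 arrays, and the part of ventricular or slow muscle tissue in their values was not tested. Pericyte markers, 3 measured of 6, summed from 1943 to 2565 over the arrays, and fibroblast markers, 6 of 8, from 6363 to 9134. The 2 Schwann cell markers of 4 summed from 452 to 686.5, the 2 red blood cell markers of 3 from 333 to 419, and 1 mesothelial marker of 5 read from 46.4 to 65.8. No marker of any list passed the limma adjusted threshold.

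For each of the 5, the genes most like it were named by Pearson correlation over the 6 arrays among 1650 tested genes that spanned at least 0.5 in log2. The highest of 1650 correlations over 6 points are high by selection, and arrays of 1 group share their condition, so no p is given. EDN1 was most like INO80C (r = 0.994), C1GALT1C1 (0.980) and TMCO1 (0.975). EDNRA was most like AKR1CL1 (0.991), RNF207 (0.971) and TKT (0.944). DDAH1 was most like SERPINB2 (0.993), an inhibitor of plasminogen activators, the LIM protein gene FHL1 (0.988) and SMARCD3 (0.987). CNN1 went with DICER1 (0.979), CYB5R1 (0.972) and GLRX (0.966), and VEGFA with COX10 (0.987), ABHD5 (0.961) and SELENBP1 (0.957).

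FHL1 shows what such a likeness looks like in intensities. It read 9944 and 12171 in the NC pair, 13581 and 13183 in the MR pair, and 6866 and 7073 in the MRV pair, the order of arrays that DDAH1 had except between the lowest 2. AKR1CL1, the closest to EDNRA, read 134 and 102 in the NC pair, 55.3 and 34.5 in the MR pair, and 124 and 93.5 in the MRV pair. Both MR arrays were lowest, as for EDNRA.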

How the data were processed

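Each array had 1 deposited intensity value for every probe set, in linear units that ran from 4.8 to 27167. It was normalized between arrays before deposit, as the array medians show. MAS5 and RMA are both named, with no version, in the submitters' processing notes, and the sources used here do not say which produced the values. Of 24123 probe sets, 124 controls were left out. The platform annotation gave 1 symbol for 10069 of the other 23999, several for 198 and none for 13732, and genes were named from the first kind only. Of those, 9961 had their Entrez ID listed in the RefSeq table of assembly Sscrofa11.1, with 0 symbols changed.

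Probe sets with a mean below the 40th percentile (61.4) were not tested, which left 14400, and the brightest stood for its gene. Differences of log2(intensity + 16) came from limma 3.58.1 under R 4.3.3 (lmFit, then eBayes), with all 6 arrays and a mean per group. The fit had 3 residual and 2.78 prior degrees of freedom. Adjusted p-values are Benjamini-Hochberg over all tested probe sets per comparison, with a threshold of 0.05. The fit was tested on simulated data. Log2 differences of dim probe sets are understated on this scale, and the number of arrays limits the precision.

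The 5 genes, the 8 pathway lists and the 11 marker lists were chosen with earlier results of these data known. Genes are named if they are one of the 5, stood in a list of genes by role, passed the threshold, or were among the 2 smallest p-values of a list and comparison at a log2 difference of at least 0.5 without overlap, or were among the 3 most like one of the 5. Cell type markers beyond these rules are also named. All 4 tested adipocyte markers are given, and single markers such as NPPA, MYL4 and MYL2 were chosen with their values in view. Other exceptions are marked where they occur. The 6 pigs are separate animals in the design text, so the spread within a group holds animal and technical variation.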

Additional observations from a re-analysis of the deposited data

How the results depend on the processing

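Over 17 alternatives EDN1, EDNRA, DDAH1, CNN1 and VEGFA kept their sign in MR minus NC and in MRV minus MR. In MRV minus NC, DDAH1 and CNN1 kept theirs in all 17, while EDN1 and EDNRA kept theirs in 14 and VEGFA in 16. A change of the filter, the prior, the replicate block or an array outside the comparison cannot move these differences. Many of the 17 therefore kept the sign by construction. The count of pathway genes past the limma threshold was 0 under each alternative. The 1 probe set called over all genes in MR minus NC was 0 with a pseudocount of 1, no filter, quantile normalization, an intensity trend, the actin ratio as a covariate, only the 4 arrays compared, or without any 1 array (0 to 0). With the replicate number as a block, it was 0, and in MRV minus MR it was 2 where it had been 0; neither is a gene named here. Whether the numbers in the titles pair the animals was not settled. Deviations of same-numbered arrays correlated at 0.34 for NC with MR, 0.20 for NC with MRV, and 0.02 for MR with MRV. These values cannot decide it, because probe sets are no independent replicates. The 28S ribosomal RNA control was lower on replicate 1 than on replicate 2 of every group. List medians with the 5 genes included turned sign by more than their spread with the actin ratio as a covariate for the other vasoactive mediators in MR minus NC (-0.012), the nitric oxide list (0.066) and the calponins (0.15) in MRV minus MR, and the hypoxia list in MRV minus NC (0.0073). Smaller medians turned too, among them VEGF and angiopoietin (from 0.075 to -0.020) and contractile (from 0.013 to -0.034) in MR minus NC. Without the 5 genes, 1 of 8 list medians turned sign with the covariate in MR minus NC, 4 in MRV minus MR and 2 in MRV minus NC. Without 1 array, the medians with the 5 genes ran from -0.028 to 0.098 for the vasoactive list in MR minus NC and from -0.32 to 0.028 for the hypoxia list in MRV minus NC, and other lists crossed 0 as well. The cause of these changes was not tested.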
